A study of Mus musculus with 2 samples.

Results

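MiR-221 and miR-222 are a pair of neighbouring microRNAs with a common seed, described here by their 4 mature arms, mmu-miR-221-3p, mmu-miR-221-5p, mmu-miR-222-3p and mmu-miR-222-5p. The arms were chosen by name and make up 4 of the 1909 mature microRNAs listed. All 4 were among the 356 that reached a floor of 50 counts in db/db or db/+. The study sequenced small RNA from cultured smooth muscle cells of the thoracic aorta. The db/db library came from type 2 diabetic males of the strain BKS.Cg-m+/+Leprdb/J, which lack a working leptin receptor. The db/+ library came from heterozygous control males (Lepr+/-). All animals were 10 to 12 weeks old, and both cultures grew in DMEM/F-12 medium to which 10% serum was added. Each group had 1 library, and how many mice stood behind each culture is not stated in the labels. The study's title concerns miR-504, and the libraries ask which microRNAs differ between the diabetic and the control cells.

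A microRNA hairpin is cut into a short duplex, and an Argonaute protein keeps mostly a single strand, the guide, while the passenger strand is largely lost. The guide finds messenger RNAs mainly through its seed, bases 2 to 8. Guides of this family are known to repress the cell-cycle inhibitors Cdkn1b and Cdkn1c and the receptor Kit. In rat arteries they are known for promoting smooth muscle growth after injury, and in endothelial cells they are also abundant.

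The mature sequences are shown because the shared seed is what joins the family. They are RefSeq sequences on GRCm38.p6, written 5′ to 3′ with the seed in capitals.
miR-221-3p: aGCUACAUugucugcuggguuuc
miR-222-3p: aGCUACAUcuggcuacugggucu
miR-1928: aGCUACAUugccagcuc
miR-221-5p: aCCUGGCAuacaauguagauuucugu
The seed GCUACAU was carried by 3 mature names of the RefSeq table, both 3p arms and miR-1928, from chromosome 1. Its canonical target site of 8 bases, the seed complement followed by A, is AUGUAGCA. The seed CCUGGCA of miR-221-5p was found in no other name of that table. MiR-1928 had 0 counts in the db/db library and 0 in the db/+ library. Counts of 0 allowed levels of up to 0.123 CPM (counts per 1000000 microRNA reads) in db/db and 0.116 CPM in db/+. Among names with a sequence in the RefSeq table, the measured seed family thus consisted of miR-221-3p and miR-222-3p. That table held a mature sequence for 1623 of the 1909 names and none for miR-222-5p, so the remaining names were not checked for the seed.

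Both 3p arms are 23 bases long, and their first 8 bases are identical. Without gaps, 11 of the 23 positions matched. The 12 differences began with U9C, counted from the 5′ end of miR-221-3p with its base first. A further run of 6 bases, CUGGGU, occurred in both, starting at base 15 of miR-221-3p and at base 16 of miR-222-3p. Full-length reads of the guides are thus unlike past the seed, and how shorter reads were assigned is not stated in the labels.

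The hairpins are shown with the mature arms above in capitals, since arm use is compared further on.
Mir221: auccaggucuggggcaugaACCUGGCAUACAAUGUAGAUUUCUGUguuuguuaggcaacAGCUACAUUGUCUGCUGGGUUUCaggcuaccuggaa
Mir222: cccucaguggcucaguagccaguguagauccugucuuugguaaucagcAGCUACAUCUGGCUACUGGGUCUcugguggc
Mir221 lies at chrX:19146294-19146388 and Mir222 at chrX:19146893-19146971, both on the minus strand, with 504 bases between them. No other GENCODE M21 gene overlapped this stretch. The nearest gene was Gm14636, a non-coding transcript on the same strand, 10009 bases away on the side of Mir222. The nearest protein-coding gene was Tex13c3, 332448 bases away. The longest uninterrupted Watson-Crick match between the 3p arm and the 5′ side of its hairpin was 9 bases for miR-221-3p, at bases 3 to 11 and so over most of the seed. For miR-222-3p it was 10 bases, at bases 9 to 18, past the seed. Shorter matches were not counted, so this does not show that the seed of miR-222-3p is unpaired in its hairpin.

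The db/db library held 24295112 microRNA counts and the db/+ library 25915732. Let-7 names took 81.3% of counts in db/db and 81.4% in db/+. Smooth muscle markers of the miR-143 and miR-145a hairpins, 4 of 4 detected, summed to 1567 CPM in db/db and 1656 CPM in db/+. Endothelial markers, both arms of miR-126a, summed to 71 counts (2.92 CPM) in db/db and 7 counts (0.270 CPM) in db/+. Most of this lay in miR-126a-5p, with 58 counts in db/db and 2 in db/+. MiR-126a-3p, under the floor, had 13 in db/db and 5 in db/+. Blood markers summed to 16 counts in db/db and 18 in db/+, with miR-223-3p, miR-142a-3p and miR-144-3p at 0 in both. Epithelial markers summed to 22 counts in db/db and 7 in db/+, with miR-141-3p and miR-205-5p at 0 in db/db and miR-200b-3p and miR-429-3p at 0 in db/+. The part of the endothelial and epithelial differences in the values below was not tested. Each library came from a whole culture, so fewer cells of a type and less RNA per cell cannot be told apart.

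The guide of the Mir221 hairpin, mmu-miR-221-3p, was the most abundant arm. It had 66898 counts in the db/db library, or 2754 CPM (95% Poisson interval 2733 to 2775), and 78757 counts in the db/+ library, or 3039 CPM (3018 to 3060). It stood at place 20 of all microRNAs in each library. The ratio of db/db over db/+ was 0.906, with a 95% interval for counting error of 0.897 to 0.915. The level was thus lower in the db/db library, and the Poisson intervals were apart.

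The guide of the neighbouring hairpin, mmu-miR-222-3p, lay on the other side. Its 28385 counts in the db/db library gave 1168 CPM (1155 to 1182), against 27884 counts or 1076 CPM (1063 to 1089) in the db/+ library. The ratio was 1.09 (1.07 to 1.10), so this guide was slightly more abundant in the db/db library. It stood at place 29 in db/db and at place 33 in db/+.

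The passenger arms were far rarer. The arm mmu-miR-221-5p had 990 counts, or 40.7 CPM (38.3 to 43.4), in db/db and 1017 counts, or 39.2 CPM (36.9 to 41.7), in db/+. Its ratio of 1.04 had an interval of 0.950 to 1.13, which included 1. The arm mmu-miR-222-5p had 75 counts, or 3.09 CPM (2.43 to 3.87), in db/db and 85 counts, or 3.28 CPM (2.62 to 4.06), in db/+. Its ratio of 0.941 had an interval of 0.681 to 1.30. Scaled to the library totals, neither passenger differed between the libraries beyond counting error. For miR-221-5p this depended on the scaling, as its interval lay above 1 with TMM (1.01 to 1.21), upper-quartile (1.02 to 1.21) and DESeq2 factors (1.01 to 1.21). The interval of miR-222-5p included 1 under each of the 5 other scalings that gave an interval.

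**Figure D1:**
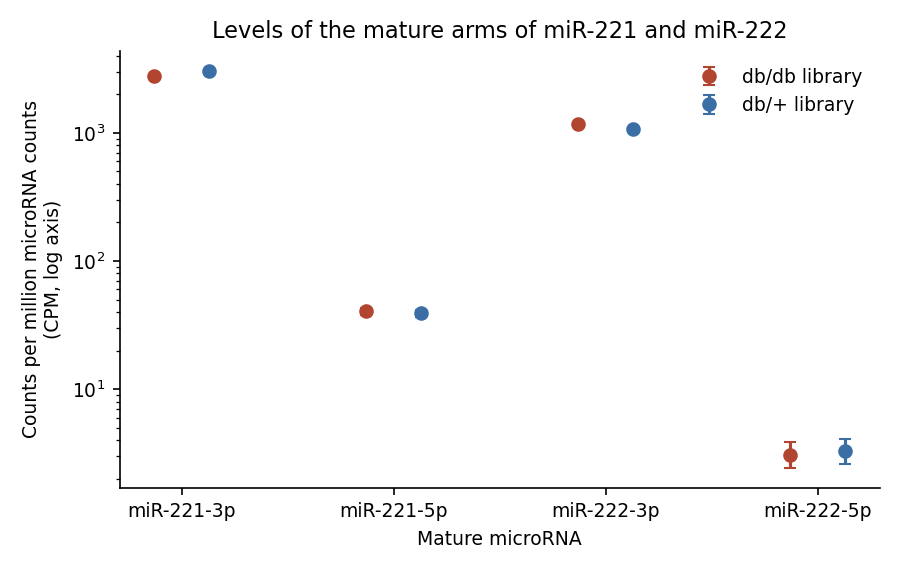
Level of each mature arm in CPM (log axis) in the db/db library (red, left of each pair) and the db/+ library (blue); bars are 95% Poisson intervals, often smaller than the points. The arms span about 3 orders of magnitude, from 2754 CPM for miR-221-3p to 3.09 CPM for miR-222-5p in db/db, while the libraries lie close together for each arm.

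None of the 4 ratios reached 1.5-fold. For comparison, 64 of the 356 microRNAs past the floor, or 18.0%, differed by at least 2-fold, and 134, or 37.6%, by at least 1.5-fold. Of all 356, 175 had a lower ratio than miR-221-3p and 180 a higher one, which puts this guide at the middle of the order. MiR-222-3p had 230 below and 125 above it. The interval of miR-221-3p lay below 1, as did 157 of the 356 (44.1%), and that of miR-222-3p above 1, as did 113 (31.7%). Intervals excluded 1 for 270 of the 356 (75.8%) and for 42 of 44 microRNAs with at least 10000 counts in each library (95.5%). An interval that excludes 1 was therefore the rule at this depth. It covers the counting error of reads only and says nothing of variation between mice or cultures. Where reads are PCR copies of the same molecule, it does not cover the sampling of molecules either.

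**Figure D2:**
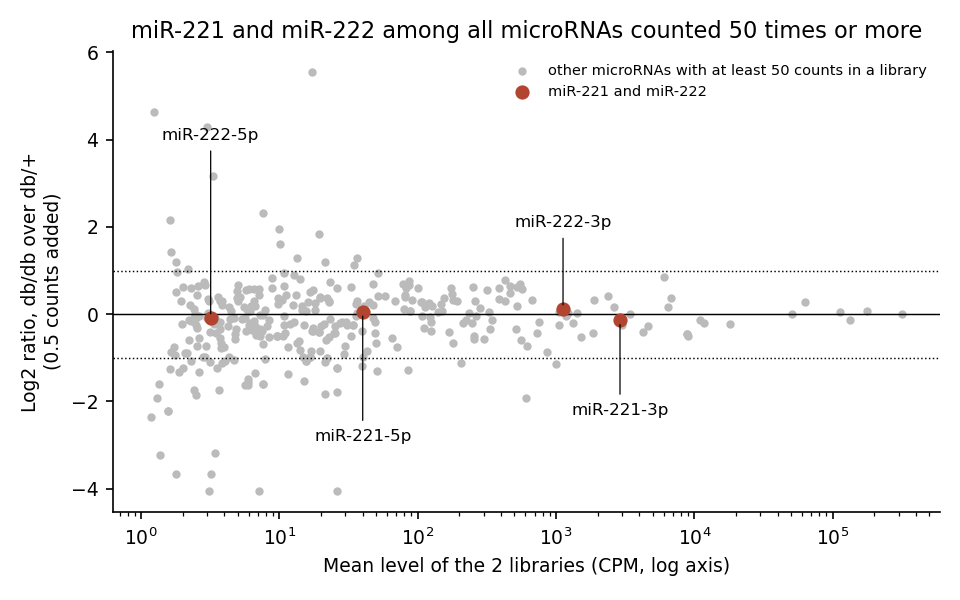
Log2 ratio of db/db over db/+ (0.5 counts added) against the mean level of both libraries (CPM, log axis) for the 356 microRNAs past the floor of 50 counts; dotted lines mark 2-fold. The 4 arms (red) lie near 0, between -0.14 for miR-221-3p and 0.12 for miR-222-3p, inside a cloud that widens toward low levels.

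The seed family as a whole was nearly level. Both 3p arms summed to 95283 counts (3922 CPM) in db/db and 106641 counts (4115 CPM) in db/+, a ratio of 0.953 (0.945 to 0.961). They made up 0.392% of all microRNA counts in db/db and 0.411% in db/+. Leaving out let-7 names, the shares were 2.10% in db/db and 2.21% in db/+. All 4 arms together had a ratio of 0.954 (0.946 to 0.962). This ratio passed to the other side of 1 under other scalings, at 1.01 with edgeR's TMM factors, 1.02 with DESeq2 size factors and 1.02 with upper-quartile factors. The side on which the summed family lay thus depended on the scaling.

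Each guide taken alone stayed on its side of 1. Over 6 other scalings the ratio of miR-221-3p was 0.901 to 0.969, and that of miR-222-3p was 1.08 to 1.16. MiR-221-5p had 1.03 to 1.11 and miR-222-5p 0.936 to 1.01. The spread over scalings exceeded the counting interval of each guide.

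**Figure D3:**
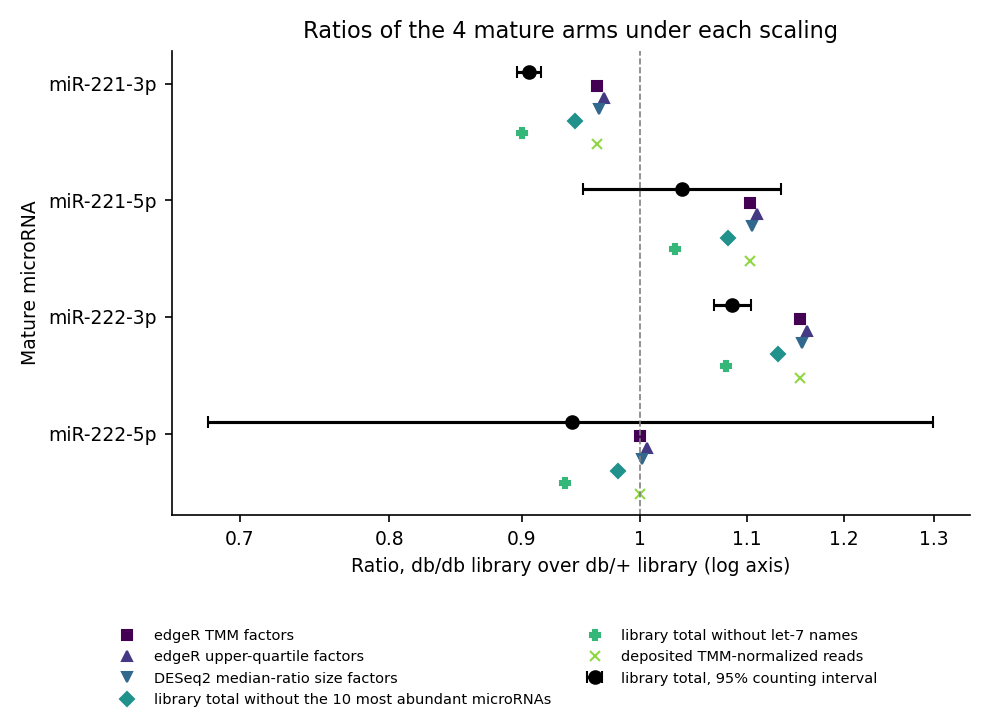
Level in db/db divided by level in db/+ (log axis) for each mature arm; black points are scaled to the library total with 95% counting intervals, coloured symbols are 6 other scalings. Every symbol of miR-221-3p lies below 1 (0.901 to 0.969) and every symbol of miR-222-3p above 1 (1.08 to 1.16), whereas the plotted intervals of both 5p arms, scaled to the library total, span 1.

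The balance between the guides was compared inside each library, where scaling cancels. MiR-222-3p made up 29.8% of the counts of both 3p arms in db/db (95% Clopper-Pearson interval 29.5 to 30.1, 28385 of 95283) and 26.1% in db/+ (25.9 to 26.4, 27884 of 106641). There were 2.36 reads of miR-221-3p for each read of miR-222-3p in db/db and 2.82 in db/+. The ratio of miR-222-3p exceeded that of miR-221-3p by a factor of 1.20 (1.18 to 1.22). Although they share a seed and lie close together, the guides thus differed by unlike amounts between these libraries, beyond counting error.

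No such shift was detectable between the passengers. MiR-222-5p made up 7.04% of the 5p counts in db/db (5.58 to 8.75, 75 of 1065) and 7.71% in db/+ (6.21 to 9.45, 85 of 1102). The odds ratio was 0.906 (0.656 to 1.25), an interval that includes both 1 and the 1.20 measured for the guides. Of the 6 pairs that the 4 arms form, 2 had ratios that differed beyond counting error, miR-222-3p against miR-221-3p and miR-221-5p against miR-221-3p.

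Arm use was strongly one-sided in both hairpins. The 5p arm held 1.46% of miR-221 counts in db/db (1.37 to 1.55, 990 of 67888) and 1.27% in db/+ (1.20 to 1.36, 1017 of 79774). For miR-222 it held 0.264% in db/db (0.207 to 0.330, 75 of 28460) and 0.304% in db/+ (0.243 to 0.376, 85 of 27969). The miR-221 shares lay apart, with an odds ratio of 1.15 (1.05 to 1.25), but by only 0.183 percentage points. The miR-222 shares overlapped, with an odds ratio of 0.867 (0.635 to 1.18).

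The hairpins differed from each other more than the libraries did. The odds of a 5p read were 5.60 times higher in miR-221 than in miR-222 in db/db (4.43 to 7.09) and 4.24 times higher in db/+ (3.39 to 5.29). Among 204 hairpins with both arms named and at least 50 counts in each library, 86 had a minor arm under 2% in both libraries, these 2 among them. The median hairpin moved its 5p share by 0.917 points, and 101 of the 204 moved by at least 1 point. In order of the size of that movement, from the smallest, miR-222 stood at place 42 and miR-221 at place 56. A hairpin with a minor arm under 2% has little room to move in points, so these places say little about how stable its arm use was.

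**Figure D4:**
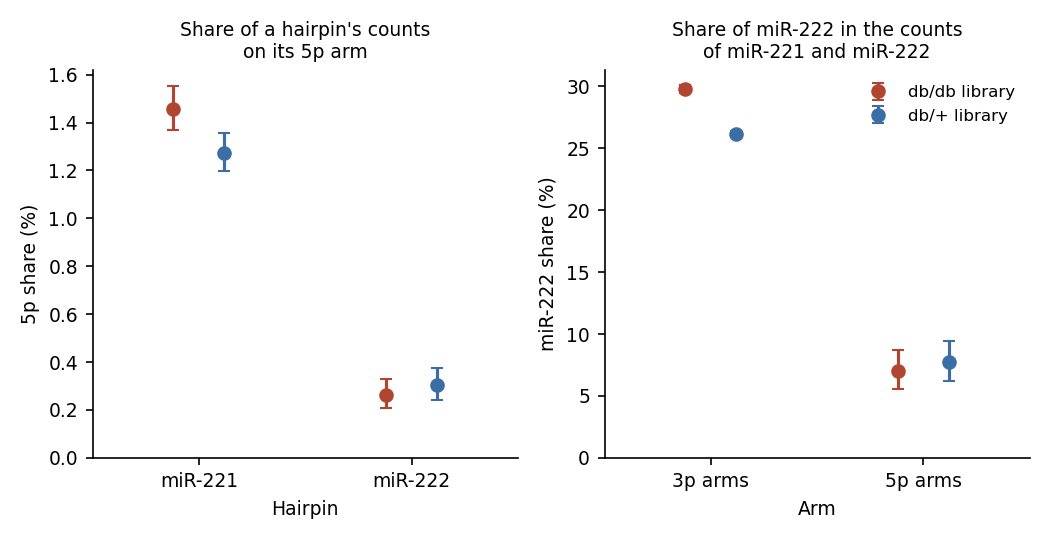
Left, share of each hairpin's counts on its 5p arm (%); right, share of miR-222 in the summed counts of miR-221 and miR-222, for the 3p and the 5p arms (%); db/db library red, db/+ library blue, bars are 95% Clopper-Pearson intervals. The share of miR-222 among 3p arms is 29.8% in db/db and 26.1% in db/+, while the shares among 5p arms overlap.

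Other neighbouring hairpins give a scale for the gap between the guides. Each hairpin was represented by its most abundant arm past the floor whose name had a single precursor gene. Arms shared by several hairpins were left out, so miR-16-1-3p stood for Mir16-1 although miR-16-5p was more abundant. Hairpins without such an arm were skipped. Pairs whose arms had equal counts in each library were left out. This gave 81 pairs of successive hairpins on the same strand within 10000 bases, Mir221 with Mir222 among them. Many of the 81 lie on chromosome 12, between Mir493 and Mir3072. The median difference between the log2 ratios of the paired arms was 0.38. The difference for Mir221 and Mir222 was 0.26, the 25th smallest. Restricted to 14 pairs with at least 1000 counts in every value, the median was 0.30 and Mir221 with Mir222 stood at place 4 from the smallest. In 6 of these 14 pairs, Mir221 with Mir222 among them, the ratios, scaled to the library totals, lay on both sides of 1. The X-linked miR-503-5p and miR-322-3p, with ratios of 1.04 and 1.27, differed by 0.30, and miR-145a-5p and miR-143-3p of the smooth muscle cluster, with 0.795 and 0.971, by 0.29. A gap of this size between neighbours was therefore common in these libraries. Pairs of a cluster share hairpins and libraries, so this is a description.

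**Figure D5:**
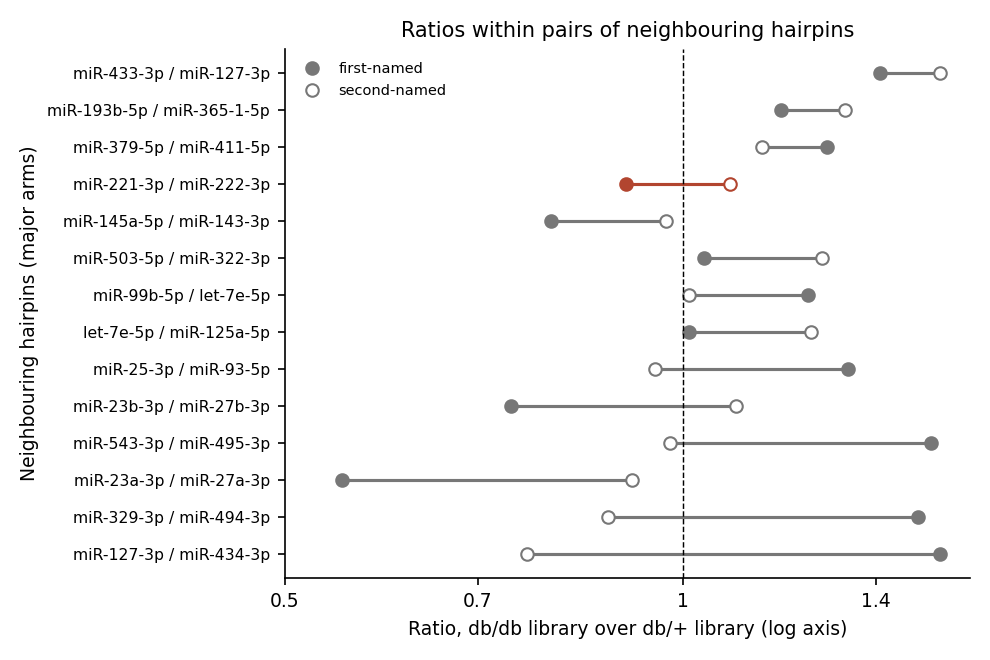
Level in db/db divided by level in db/+ (log axis) for 14 pairs of neighbouring hairpins with at least 1000 counts in every value. Each hairpin is shown by its most abundant arm with a single precursor gene. Pairs are ordered by the difference inside the pair, with filled points for the first-named arm and open points for the second. The pair of miR-221-3p (0.906) and miR-222-3p (1.09), in red, is at place 4 from the closest.

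In the order of levels, miR-221-3p stood between miR-206-3p (67163 counts) and miR-191-5p (66251) in db/db and differed from neither beyond counting error. In db/+ it stood between miR-191-5p (84470) and miR-206-3p (64085) and differed from both. MiR-222-3p followed miR-1839-5p (29803) in db/db, which was higher beyond counting error, and preceded miR-143-3p (28364), which was not distinguishable from it. In db/+ it stood between miR-23a-3p (28828) and miR-669c-5p (26553) and differed from both. MiR-221-5p stood at place 115 in db/db, next to miR-30e-5p and miR-351-3p, and at place 118 in db/+, next to miR-337-5p and miR-106b-5p. MiR-222-5p shared place 283 in db/db with miR-300-3p and miR-96-5p, just after miR-361-5p, and place 303 in db/+ with miR-1843a-3p, just before miR-132-5p. None of these neighbours of the passengers was distinguishable from them.

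Likeness over both libraries was measured as the distance between pairs of log2 CPM levels. The nearest to miR-221-3p was miR-191-5p at a distance of 0.10, followed by miR-206-3p at 0.30 and miR-125b-5p at 0.36. The ratio of miR-191-5p was 0.837 (0.828 to 0.845), against 1.12 for miR-206-3p and 1.01 for miR-125b-5p. The nearest to miR-222-3p were miR-669c-5p at 0.15, miR-143-3p at 0.16 and miR-1839-5p at 0.18. Their ratios were 1.04, 0.971 and 1.02. With 2 libraries such likeness is mainly one of level.

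Among microRNAs known to act on smooth muscle growth or migration in either direction, the guides ranked high. In a list of 25 names, these 4 arms included, miR-221-3p held place 3 in each library, after miR-21a-5p and miR-125b-5p, and miR-222-3p held place 4 in db/db and place 5 in db/+. Of the other 21 names 19 passed 50 counts, with 4 ratios above 1, 15 below and a median log2 ratio of -0.56. Over all 356 microRNAs 153 ratios were above 1, 203 below, and the median was -0.14. In the list 3 were at least 2-fold higher, where 4.49% of the 356 were, and 2 at least 2-fold lower, where 13.5% were. The 3 higher names include both arms of miR-504, the microRNA of the study's title. The list was chosen with earlier results of these data known, so the count of higher names is no evidence of enrichment. Because the list mixes microRNAs that act in either direction, its median and its ratios below 1 give no direction for growth.

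The growth microRNA closest to miR-221-3p in ratio among the 5 most abundant was miR-31-5p, at 0.911 (0.884 to 0.939). MiR-21a-5p, which promotes smooth muscle growth, had 7399 CPM in db/db and 10479 CPM in db/+, a ratio of 0.706 (0.702 to 0.710). MiR-26a-5p had a ratio of 0.661 and miR-24-3p 0.836. The members past 2-fold were miR-146a-5p (5.05), miR-504-5p (9.16) and miR-504-3p (4.55) above, and miR-132-3p (0.2996) and miR-195a-5p (0.188) below. Each of them had at most 308 counts in a library.

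MicroRNAs linked to the contractile state gave a second frame. Of 10 names 7 passed 50 counts, 3 with ratios above 1 and 4 below (5 and 2 under 5 other scalings). Their median log2 ratio was -0.03, and it was 0.02 to 0.06 under the same 5 scalings. The most abundant, miR-10a-5p, had a ratio of 1.79. MiR-143-3p, a mark of differentiated smooth muscle, had 1168 CPM in db/db and 1202 CPM in db/+, close to miR-222-3p in level. MiR-143-5p had a ratio of 1.32, miR-145a-5p 0.795 and miR-23b-3p 0.741. With the library total as scale 0 of the 7 reached 2-fold, and 1 did under those 5 scalings. This was miR-1a-3p, whose ratio on the library total, 1.93 (1.78 to 2.09), was the highest of the 7.

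The locus lies on chromosome X, and 144 other names had all their precursor genes there. Of these 27 passed 50 counts, 14 with ratios above 1 and 13 below, and the median log2 ratio was 0.05. At least 2-fold higher were 8 of the 27, where 16 of the 356 (4.49%) were. The 8 were both arms of miR-504, both of miR-676, miR-672-5p, miR-224-5p, miR-452-5p and miR-351-5p. Both arms of miR-504, miR-672-5p and miR-676-5p reached the floor only through db/db, with at most 23 counts in db/+. Several of the 8 are arms of the same hairpin, and Mir224 and Mir452 are neighbours. The count of higher names is therefore no evidence of enrichment on chromosome X. At least 2-fold lower were 2, miR-361-5p (0.356) and miR-652-3p (0.467), where 13.5% of the 356 were. MiR-652-3p reached the floor only through db/+, with 112 counts there and 49 in db/db. The count of lower ones was 4 when let-7 names were left out of the total, through miR-374b-5p and miR-374c-5p. Both names have the same counts, 355 in db/db and 756 in db/+, with a ratio of 0.501 on the library total. The 5 most abundant were miR-322-3p (1.27), miR-503-5p (1.04), miR-98-5p (0.755), miR-351-5p (2.19) and miR-351-3p (1.55). In level miR-221-3p and miR-222-3p exceeded each of them, the highest being miR-322-3p with 436 CPM in db/db and 342 CPM in db/+.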

How the data were processed

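Small RNA libraries of cultured aortic smooth muscle cells were compared, 1 db/db and 1 db/+. Novoalign, edgeR and mm10 appear in the submitters' processing notes, without a role or version. How reads were trimmed, which catalogue was used and how reads matching several microRNAs were treated is not given in the sources used here. For each of 1909 mature microRNAs the authors deposited a raw count and a TMM-normalized value, per the file headers. TMM scaling takes most features to be alike between libraries. The normalized reads were deposited by the authors as whole numbers, so they were treated as a score and entered 1 alternative only.

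Counts were scaled to the library total as CPM. Ratios are db/db over db/+ with exact conditional Clopper-Pearson 95% intervals (scipy 1.17.1), levels carry exact Poisson intervals, shares Clopper-Pearson intervals and odds ratios Woolf intervals. With 1 library per group no residual degrees of freedom remained, so edgeR's quasi-likelihood test had nothing to fit, and the text gives no p-value. Log2 ratios had 0.5 counts added. Alternatives used edgeR 4.0.16 and DESeq2 1.42.0 factors, totals without the 10 most abundant or let-7 names, and other floors. Depth limits precision to counting error: 3 counts, which a count of 0 allows, are 0.123 CPM in db/db and 0.116 CPM in db/+.

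The arms, the lists and the comparisons with neighbouring hairpins were chosen with earlier results of these data known. Named microRNAs are the 4 arms, those with an equal seed, the 3 nearest in level to each guide, those next in order, and of each list the 5 most abundant and those past 2-fold. Names met in the comparison of neighbouring hairpins, and list members past 2-fold only under another scaling, were added after seeing their values. GENCODE M21 (GRCm38) held a precursor gene of the same name for 1847 of 1909 names. Sequences are from RefSeq, GRCm38.p6, where 1623 names matched. The computation was tested on simulated counts.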

Additional observations from a re-analysis of the deposited data

How the results depend on the processing

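Every ratio rests on 1 library per group, so no alternative addresses variation between mice. Given as edgeR TMM, upper quartile, DESeq2, total without the 10 most abundant and deposited TMM reads (the last chosen after seeing the data), the ratios were as follows. For miR-221-3p they were 0.963, 0.969, 0.965, 0.944 and 0.963. The miR-221 hairpin had 0.965, 0.971, 0.966, 0.946 and 0.965. For miR-222-3p they were 1.15, 1.16, 1.16, 1.13 and 1.15, and for the miR-222 hairpin 1.15, 1.16, 1.16, 1.13 and 1.15. The 4 arms summed had 1.01, 1.02, 1.02, 0.994 and 1.01, so the sum changed sides under 4 of these 5. These shifts follow from the scaling, which moved all log2 ratios alike by up to 0.097. Leaving let-7 out of the total kept each of these ratios inside its counting interval. The size-rule counts followed the floor by construction: 46 higher and 91 lower at 2-fold, and 96 and 156 at 1.5-fold, with a floor of 10, and 171, 259, 227 and 351 with no floor. In order of the movement of the 5p share, miR-221 stood at percentile 27.0 and miR-222 at 20.1, and with no floor at 45.9 and 42.4. The interval of miR-221-5p excluded 1 with TMM, upper-quartile and DESeq2 factors. The X-linked list had 4 members at least 2-fold lower without let-7 in the total, and 14 higher and 10 lower with no floor. Its median log2 ratio was -0.17 at a floor of 10 and -0.08 at a floor of 100. No paired analysis was possible because a single library stood for each genotype, and none could be left out. The 75 and 85 counts of miR-222-5p limit what can be said of that arm.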
